A study of Homo sapiens with 6 samples.

Results

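The regions described here carried a 5-hydroxymethylcytosine (5hmC) peak at both glucose levels and no 5-methylcytosine (5mC) peak at either. They were found by pooling the peaks of the 4 deposited lists on chromosomes 1 to 22 and X and joining peaks that shared at least 1 bp into merged regions. A merged region was kept when both 5hmC lists contributed to it and neither 5mC list did. This held for 108421 of 319166 merged regions, or 34.0% (Wilson 95% interval 33.8 to 34.1). They spanned 76.0 Mb in all. Presence in the lists chose these stable 5hmC regions without 5mC, so it is a description. A region listed at both glucose levels is not thereby shown to be equal in them.

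The cells were A2058, a human melanoma cell line, overexpressing wild-type TET2 and grown for 7 days in high glucose or in normal glucose. Genomic DNA was enriched with an antibody to 5hmC (hMeDIP-seq) or to 5mC (MeDIP-seq) and sequenced. High-glucose cells gave 3 libraries (5hmC, 5mC and input) and normal-glucose cells the same 3, of which the inputs are not analysed here. All cells carried the TET2 overexpression, so no library shows A2058 without it. The sources used here do not give the promoter of the construct or the number of clones. No RNA was measured, so the labelled cell type was not checked against markers. Each group is a single library, so differences are described without a test, and intervals cover counting error only. The labels mention no molecular identifiers, so reads need not be independent molecules. Regions are named by position on hg19, because no annotation of that build was used here.

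TET2 is a dioxygenase that oxidises 5mC to 5hmC, and further oxidation or dilution at replication can then return the base to unmodified cytosine. In many tissues 5hmC is known from gene bodies and from enhancers, and low 5hmC is a known feature of melanoma. MeDIP responds best to stretches dense in methylated CpG sites. A region without a 5mC peak may therefore still hold some 5mC.

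Although the lists hold no reads, the fold and p-value of each peak together fix the number of fragments at its summit and the number expected from the local background. The depth inferred from them was 28.0 M and 27.5 M reads for the high- and normal-glucose 5hmC libraries and 6.14 M and 5.11 M for the high- and normal-glucose 5mC libraries, if a genome of 2700 Mb was assumed in peak calling. The lowest background was 3.03 and 2.64 fragments in the high- and normal-glucose 5hmC libraries, and 0.737 and 0.615 in the high- and normal-glucose 5mC libraries. Among listed 5mC peaks whose fragments could be solved, none had fewer than 4 at its summit. Whether deeper 5mC libraries would list more peaks was not tested. When 5mC peaks below a -log10 p of 10 were ignored, 118588 regions counted as without 5mC.

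Stable 5hmC regions were mostly free of 5mC peaks. Of the 139444 merged regions with 5hmC at both glucose levels, 77.8% had none (Wilson 95% interval 77.5 to 78.0). Another 23635, or 16.9%, held both marks in all 4 lists, and 7388, or 5.30%, held 5mC at 1 glucose level. The regions without 5mC took up 57.3% of the high-glucose and 52.4% of the normal-glucose 5hmC peaks. Outside this group were 41224 regions with 5hmC in high glucose only and 53967 with 5hmC in normal glucose only, again without 5mC.

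These regions were narrower than stable 5hmC regions with both marks and wider than 5hmC regions of 1 glucose level. Their median width was 579 bp, and 84.4% were under 1000 bp. Merged regions with both marks in all 4 lists had a median width of 1454 bp, and 26.0% of them were under 1000 bp, although their width also includes the 5mC peaks. Regions without 5mC and with 5hmC at 1 glucose level had a median width of 349 bp in high glucose only and 334 bp in normal glucose only, each from a single list. The 5hmC peaks themselves were narrower too, with a median of 488 bp in high and 464 bp in normal glucose, against 702 and 796 bp where both marks met. The narrowest peak was 292 bp in the high-glucose 5hmC list and 259 bp in the normal-glucose one. Widths of these lists are thus not compared with each other. A single 5hmC peak in each list made up 105714 of the regions, or 97.5%. The same outline was found in 17971 of 23635 regions with both marks and in 6836 of 7388 with 5mC at 1 glucose level. One high-glucose peak met several normal-glucose peaks in 1499 regions, and several high-glucose peaks met 1 normal-glucose peak in 1131.

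5hmC enrichment in these regions was moderate. The authors' fold over background had a median of 4.84 in high and 4.72 in normal glucose, and the range without the lowest and highest 5% of regions was 2.83 to 9.50 in high glucose, and 2.81 to 8.85 in normal glucose. The median summit held 25 fragments in high glucose where 4.16 were expected, and 22 fragments in normal glucose where 3.76 were expected. The median -log10 p was 11.7 in high and 10.4 in normal glucose. Both lists reached a -log10 p of 10 in 45321 regions, or 41.8%, a -log10 p of 20 in 11103 and a -log10 p of 50 in 455. A fold of at least 10 at both glucose levels was found in 1458 regions, or 1.34%. A small set thus stood far above the median. Peaks found at 1 glucose level without 5mC were weaker, with a median fold of 3.86 in high glucose only and 3.69 in normal glucose only. They were listed at 1 glucose level and not at the other, so lower strength is partly built into how they were chosen.

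The summits of the high- and normal-glucose peaks lay close together. In regions with 1 peak per list, the summits of the high- and normal-glucose libraries were a median of 47 bp apart, and 75.6% lay within 100 bp of each other. Where both marks met in all lists, the median was 66 bp and 62.8% lay within 100 bp. The peaks there were also wider, as given above. Summits of narrow overlapping peaks have less room to lie apart, and the part of width in this difference was not tested. The summit position played no part in choosing the regions beyond the overlap of the peaks. In 89.3% of regions with 1 peak per list the peaks overlapped by 50% or more of each. Across the 108421 regions the fold in high glucose followed the fold in normal glucose with a Spearman rho of 0.505, and the -log10 p with a rho of 0.627. These correlations describe regions of 1 pair of libraries, which share mappability and base composition.

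The strongest members were ranked by the smaller of their -log10 p values in the high- and normal-glucose lists. First came chromosome 7 from 98176986 to 98178287, with 128 fragments in high glucose where 7.49 were expected, and 110 in normal glucose where 5.11 were expected. Its fold was 15.2 in high and 18.2 in normal glucose, and the nearest 5mC peak lay 11729 bp away. The second, on chromosome 10 from 105459969 to 105462740, had folds of 15.8 in high and 18.9 in normal glucose. Both libraries thus gave folds above 15 at these places, with no listed 5mC peak within 7027 bp. The third, on chromosome 11 from 69058796 to 69059674, held 133 fragments in high and 105 in normal glucose, and both summits fell on the same base, 69059320. Its fold ratio, high over normal glucose, was 0.960.

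Of the other 7 among the 10 strongest, those on chromosome 19 (18194412 to 18195668), chromosome 7 (157568577 to 157569951) and chromosome 12 (104298774 to 104300085) had lower folds in high than in normal glucose, at 15.9 against 17.3, 14.5 against 18.3 and 15.8 against 20.1. Counting intervals of these 3 ratios all included 1. The widest of the 10, on chromosome 2 from 1525663 to 1535346, spanned 9684 bp, and its fold ratio was 1.004. Higher in high glucose were chromosome 1 from 4204361 to 4205100, with folds of 12.8 and 10.6 in high and normal glucose, and chromosome 21 from 11123878 to 11124530, with 11.9 and 9.35. The counting interval of the ratio was 0.933 to 1.57 for the one on chromosome 1, which includes 1, and 1.01 to 1.60 for the one on chromosome 21. The one on chromosome 21 lay 0.045 Mb from the widest peak-free gap of its chromosome. Its expected background, 14.3 in high and 14.1 in normal glucose, was the highest of the 10. The largest fold of any member in high glucose, 23.96 against 15.1 in normal glucose, was on chromosome 9 from 136968343 to 136969910. Fragments there were 122 in high and 99 in normal glucose, and the expected background was 4.13 in high and 5.63 in normal glucose. The ratio of these folds was 1.59, with a counting interval of 1.21 to 2.10. Counting intervals in this paragraph take the expected background as known and leave out its error. An interval clear of 1 is thus no test of a difference in 5hmC. Over the 10 strongest, 4 had the higher fold in high glucose, and the nearest 5mC peak was 2670 to 70790 bp away.

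**Figure D1:**
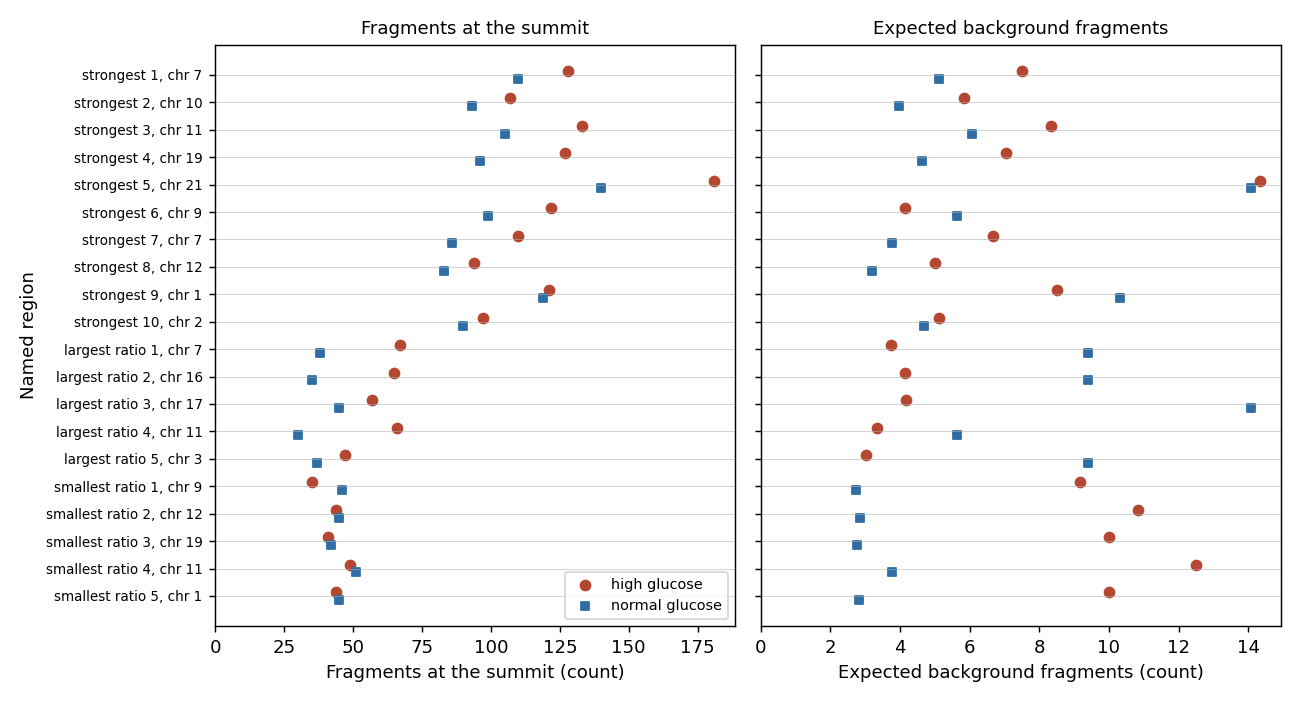
Fragments at the 5hmC summit (left, count) and fragments expected from the local background (right, count) in high glucose (circles) and normal glucose (squares), for the 10 strongest regions, the 5 with the largest and the 5 with the smallest ratio of fold, high over normal glucose. In the strongest regions the raw fragments, not divided by the library background ratio of 1.15, were higher in high glucose in each case, although 4 of the 10 had the higher fold there. Those of largest ratio differed in fragments and in the expected background and those of smallest ratio mostly in the expected background, for example 9.16 in high and 2.75 in normal glucose in the first.

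The 5 widest members lay 0 to 2.42 Mb from the widest peak-free gaps of their chromosomes. The widest, on chromosome 21 from 10773646 to 10829529, spanned 55884 bp, and the fourth widest, from 10830146 to 10860759, followed on the same chromosome. Both ended within 0.340 Mb of a gap of 3.58 Mb in which no list had a peak. On chromosome 10, regions from 39102666 to 39154845 and from 38772396 to 38818813 were 52180 and 46418 bp wide. The expected background of the 5 widest was above the median of the group, lying between 14.99 and 35.3 fragments in high glucose, and between 7.51 and 56.3 in normal glucose. Their folds differed in both directions. On chromosome 21 the first had a fold of 6.05 in high and 13.4 in normal glucose, with summits 28913 bp apart. On chromosome 10 the one from 38772396 had a fold of 8.96 in high and 6.18 in normal glucose, and the fifth, on chromosome 2 from 89850105 to 89880081, had 4.63 in high and 2.74 in normal glucose. Members of 10 kb or more numbered 10, of which 8 lay within 5 Mb of such a gap, where 5.94% of all members lay. In total 238 members were over 3 kb wide.

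Fold enrichment in these regions differed little between the glucose levels as a group. The median log2 ratio of fold, high over normal glucose, was 0.037, a ratio of 1.03, and 53.2% of the regions had the higher fold in high glucose. Over all 139444 regions in both 5hmC lists the median was 0.021. With that median subtracted, the value for the regions without 5mC was 0.016. These regions are most of that set, so the subtraction also removes part of their own value. Single regions spread widely around it, with an SD of 0.49 on the log2 scale, and 77.0% stayed within 1.5 times. A fold at least 1.5 times higher in high glucose was found in 14289 regions, or 13.2%, against a background of 12.6% of all regions in both 5hmC lists. A fold at least 1.5 times lower in high glucose was found in 10658, or 9.83%, against 10.8%. Both shares are close to the background, but these regions make up 77.8% of it, so closeness is largely built in. Among regions with both marks in all lists, 10.3% were at least 1.5 times higher in high glucose and 14.3% at least 1.5 times lower. Beside those, the regions without 5mC had more higher and fewer lower calls.

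In regions past 1.5 times, the expected background differed as well as the fragments. Among regions with the higher fold in high glucose by 1.5 times, the median summit held 31 fragments in high and 21 in normal glucose, and the expected number was 3.72 in high and 5.59 in normal glucose. Among those lower by 1.5 times, the medians were 22 fragments in high and 25 in normal glucose, with 5.83 expected in high and 3.19 in normal glucose. Fragments alone were then compared after division by the ratio of the library backgrounds, 1.15. By this measure 5000 regions, or 4.61%, were at least 1.5 times higher in high glucose (background 4.24%), and 5550, or 5.12%, at least 1.5 times lower (background 5.93%). Higher calls thus outnumbered lower calls by fold and not by fragments. Of the regions called higher by fold, 21.8% were also called higher by fragments, and of those called lower, 27.2% were also called lower. The median log2 ratio by fragments was 0.010.

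**Figure D2:**
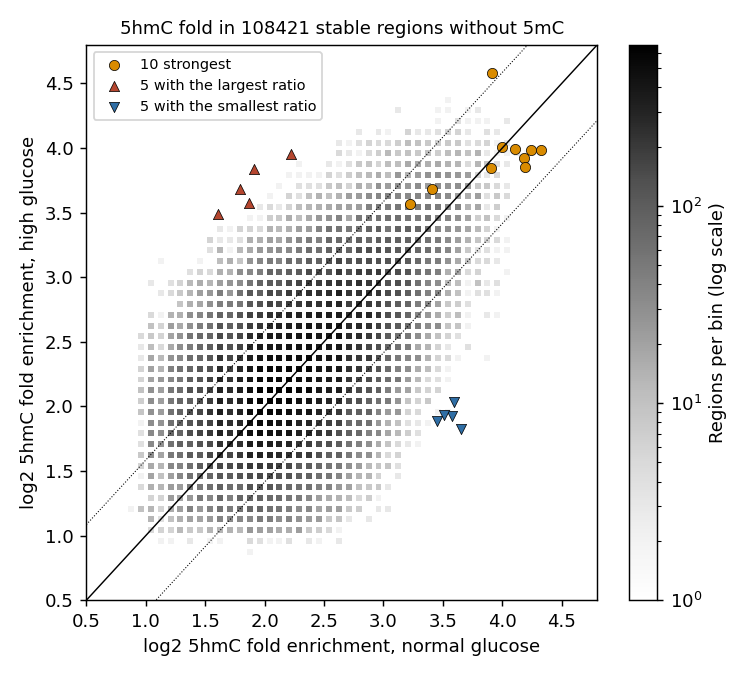
Fold enrichment of 5hmC in the stable regions without 5mC, as log2, in high glucose (y axis) against normal glucose (x axis), with the number of regions per bin in grey on a log scale, equality as a line and ratios of 1.5 as dotted lines. Most regions, 77.0%, lie between the dotted lines, and the regions of largest and smallest ratio lie outside them.

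The largest ratio of fold was sought where both lists reached a -log10 p of 10. The largest was on chromosome 7 from 93346724 to 93347321. It held 67 fragments in high and 38 in normal glucose, with 3.74 and 9.39 expected, so that its fold was 14.3 in high and 3.75 in normal glucose. Fragments and background both differed there, and the ratio was 3.82. The next was on chromosome 16 (51388066 to 51388507). After it came regions on chromosome 17 (8989908 to 8991003) and chromosome 11 (2456485 to 2457541), and the last was on chromosome 3 (120462258 to 120463543). These 4 had folds of 11.2 to 15.5 in high and 3.05 to 4.67 in normal glucose. Fragments in these 5 lay between 47 and 67 in high glucose, and between 30 and 45 in normal glucose. Their summits in the high- and normal-glucose libraries were 7 to 86 bp apart.

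The smallest ratio was found on chromosome 9 (100581858 to 100582376). Its fold was 3.54 in high and 12.5 in normal glucose. Fragments there were 35 in high and 46 in normal glucose, and the expected background was 9.16 in high and 2.75 in normal glucose. Next was a region on chromosome 12 at 126369027 to 126369430, with 44 fragments in high and 45 in normal glucose and a fold of 3.81 in high and 12.0 in normal glucose. The fragments of that region were nearly equal, and the difference in fold lay in the expected background, 10.8 in high and 2.85 in normal glucose. The remaining 3, on chromosome 19 (34319368 to 34320332), chromosome 11 (102189994 to 102190606) and chromosome 1 (27317666 to 27318515), were alike in this, their fragments lying between 41 and 49 in high glucose, and between 42 and 51 in normal glucose. These 10 regions were picked for their ratio, which is given as a description. The error of their expected backgrounds was not estimated.

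The ratio of 5hmC fold, high over normal glucose, was slightly higher in regions without 5mC than in regions with both marks. The median log2 ratio of fold was 0.037 without 5mC and -0.055 where both marks stood in all 4 lists, a difference of 0.092, and it was -0.0083 where 5mC was listed at 1 glucose level. The difference was above 0 on 23 of 23 chromosomes, which share the same libraries and are not replicates. It ranged from 0.029 on chromosome 18 to 0.14 on chromosome 11. By fragments per library background the medians were 0.010 and -0.068. With 1 library per group this difference has no test, and it is small beside the SD of 0.49 among single regions. When 5hmC peaks below a -log10 p of 10 were left out, it was 0.047.

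The difference varied with the strength of 5hmC. With regions grouped by the mean of the high- and normal-glucose -log10 p, it was 0.14 between 10 and 15, its highest, 0.021 under 5, its lowest, and 0.050 at 50 or more. The lowest value rests on 759 regions with both marks and is small beside the SD among single regions. The ratio itself was higher in strong regions without 5mC. Without 5mC it was -0.022 under a mean of 5 and 0.18 at 50 or more, and with both marks it was -0.043 under 5, -0.11 at 7.5 to 10, its lowest, and 0.13 at 50 or more. The difference between regions without 5mC and with both marks was above 0 in each group by local density of 5mC as well. With regions split into 5 equal groups by the number of 5mC peaks in their 1 Mb window (mean of high and normal glucose), the difference was 0.052 in the poorest and 0.086 in the richest. Within 661 windows that held at least 10 regions of each kind, the regions without 5mC had the higher median in 432.

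5mC peaks lay near some of the regions without overlapping them. The median gap from a stable 5hmC region without 5mC to the nearest 5mC peak was 9878 bp. Within 1000 bp lay 12309 regions, or 11.4% (Wilson 95% interval 11.2 to 11.5), and within 5000 bp 36.1%, while 12.2% were more than 100 kb away. The share within 1000 bp was 5.62% when peaks up to 500 bp apart were joined and 6.99% when only 5mC peaks with a -log10 p of at least 10 were used. Regions with 5hmC in high glucose only and no 5mC had a median gap of 12190 bp, with 9.88% within 1000 bp. For those with 5hmC in normal glucose only it was 6652 bp and 14.3%. The stable regions thus stood between the single-glucose kinds in their distance from 5mC.

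The ratio of 5hmC fold varied with this distance. Regions 0.5 to 1 kb from a 5mC peak had a median log2 ratio of -0.0041, and those 2 to 5 kb away 0.015. At 10 to 20 kb it was 0.042, and at 50 to 100 kb 0.072, the highest. Beyond 100 kb it was 0.063, and next to a 5mC peak, within 200 bp, it was 0.028, so the course was not a steady rise. The share at least 1.5 times lower in high glucose was 11.8% at 0.5 to 1 kb and 7.97% at 50 to 100 kb. The share at least 1.5 times higher was 12.02% and 13.9% at these distances. Regions far from 5mC were also narrower, with a median of 524 bp beyond 100 kb and 643 bp at 0.5 to 1 kb, and slightly stronger, with a median mean -log10 p of 11.4 and 10.5. The part of width and strength in this pattern was not tested.

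**Figure D3:**
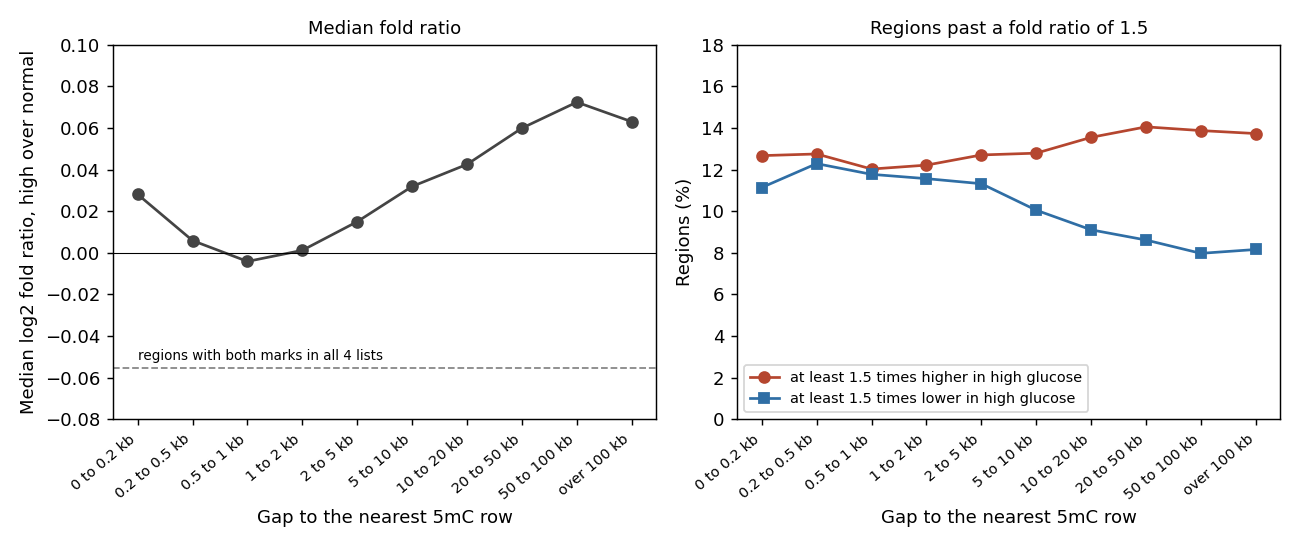
Stable 5hmC regions without 5mC, grouped by the gap to the nearest 5mC peak (x axis, kb). Left, the median log2 ratio of 5hmC fold, high over normal glucose, with the median of regions with both marks as a dashed line at -0.055. Right, the percent of regions with a fold at least 1.5 times higher (circles) or lower (squares) in high glucose. The left curve is lowest at 0.5 to 1 kb and highest at 50 to 100 kb.

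The share of stable 5hmC regions free of 5mC differed between chromosomes. It was highest on the X chromosome, at 88.5% of 3574 (Wilson 95% interval 87.4 to 89.5), and on chromosome 3, at 86.4%, and lowest on chromosome 19, at 54.9% of 6507 (53.7 to 56.1). Chromosomes 22, 16 and 17 followed from below with 64.6%, 64.8% and 65.0%. Counted per Mb between the outermost peaks, such regions were still dense on chromosome 19, at 60.7, and densest on chromosome 20, at 63.4, while the X chromosome had 20.8. Chromosome 19 thus had a low share beside a high density. The median log2 ratio of fold was above 0 on 23 of 23 chromosomes and ranged from 0.014 on chromosome 17 to 0.086 on the X chromosome. All chromosomes come from 1 pair of libraries and are not replicates, and the median of all regions in both 5hmC lists was itself 0.021.

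Ends of chromosomes were poor in such regions as a share of stable 5hmC. Within 5 Mb of the outermost peak of a chromosome, 55.2% of stable 5hmC regions were free of 5mC, against 81.3% farther in. Of all stable 5hmC regions without 5mC, 9.58% lay in these end zones, against 30.4% of regions with both marks in all 4 lists. Regions without 5mC and with 5hmC at 1 glucose level were similar, at 8.33% for high glucose only and 9.47% for normal glucose only. A share of this size was thus not particular to the stable regions, and it is low only beside regions that hold 5mC. Of all 139444 stable 5hmC regions, 18798 lay in these zones. The part of chromosome length in the zones was not set beside these shares, so they show no depletion per Mb. The share also differed with the 5mC density of the surrounding 1 Mb window. In the fifth of stable 5hmC regions with the fewest 5mC peaks in their window 96.2% were free of 5mC, and in the fifth with the most 49.9%. The windows were sorted by the same 5mC peaks that decide which regions are free of 5mC, so a fall in the share was built into the sorting, and these values are a description only.

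Narrow 5hmC was freer of 5mC than broad 5hmC. Where the mean width of the high- and normal-glucose peaks was under 300 bp, 92.1% of stable regions held no 5mC, against 79.3% at 500 to 700 bp and 23.6% at 2000 bp or more. A wide peak can meet a 5mC peak at more positions, and the part of this in the trend was not tested. By strength the share was 76.2% under a mean -log10 p of 5, 80.6% at 7.5 to 10 and 56.8% at 50 or more.

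**Figure D4:**
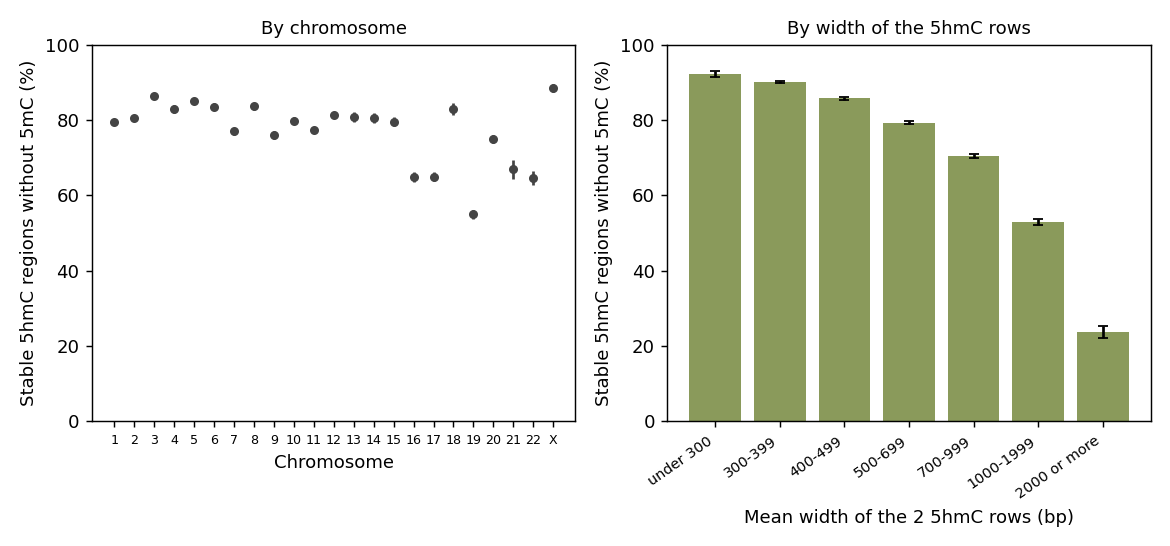
Percent of regions with 5hmC at both glucose levels that held no 5mC peak, by chromosome (left) and by the mean width of the high- and normal-glucose 5hmC peaks in bp (right). Bars and points are shares, and error bars are Wilson 95% intervals for counting only. Chromosome 19 is lowest at 54.9%, and the share is 92.1% in the narrowest and 23.6% in the widest class.

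Stable 5hmC regions without 5mC were crowded in places. The median gap to the next such region was 11843 bp, and 28.9% of gaps were under 5 kb. They occurred in 2859 windows of 1 Mb with a median of 34 per window, and 46 windows held 100 or more. The richest window, on chromosome 1 from 156000001 to 157000000, held 143, which covered 13.1% of it. It also held 120 and 111 5mC peaks of high and normal glucose and 45 regions with both marks, so 70.8% of its stable 5hmC was free of 5mC. Next were chromosome 1 from 201000001, with 137, chromosome 19 from 42000001, with 135, and from 51000001, with 133, and chromosome 10 from 80000001, with 130. The median fold in the window of chromosome 19 from 51000001 was 6.39 in high and 6.01 in normal glucose, above that of the whole group. In the window of chromosome 10 it was 4.59 in high and 4.79 in normal glucose. These windows were thus rich in 5hmC with 5mC interspersed, and their median log2 ratios ranged from -0.044 to 0.075.

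Other regions stood in long stretches without any 5mC peak, which were singled out after their values were seen. Between neighbouring 5mC peaks, 392 stretches held 20 or more of the regions, 12560 in all. The stretch with the most, on chromosome 1 from 36986288 to 37919850, held 111 in 0.934 Mb, 1 every 8.41 kb. Its regions had a median fold of 5.67 in high and 5.09 in normal glucose, and 60.4% had the higher fold in high glucose. It also held 43 regions with 5hmC in high glucose only and 16 in normal glucose only. Over the whole series, regions without 5mC numbered 41224 in high glucose only and 53967 in normal glucose only. More than 100 kb from a 5mC peak, however, they numbered 5873 in high glucose only and 4678 in normal glucose only. An excess of the high-glucose-only kind was thus not particular to this stretch. The stretches named next also held more of the high-glucose-only kind, for example 45 against 21 on chromosome 20 from 37690299. On chromosome 20 a stretch from 37690299 to 39315636 held 100 regions with a median fold of 4.83 in high and 4.90 in normal glucose, and one from 40627666 to 42061803 held 94 with 5.52 in high and 5.16 in normal glucose. On chromosome 5 from 151183922 to 153406925 there were 97, and on chromosome 1 from 152435153 to 153493983 there were 84. The first stretch had a median log2 ratio of 0.11, while those on chromosomes 5 and 20 (from 37690299) had median log2 ratios of 0.0028 and -0.016. The region farthest from any 5mC peak lay on the X chromosome from 91402857 to 91403179, 2107 kb away, with 18 fragments in high and 15 in normal glucose. Its fold was 4.71 in high and 4.40 in normal glucose.

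The edge of the definition is described by the following values. Among members with 1 peak per list, 328 rested on an overlap under 100 bp between their 5hmC peaks, with a median smaller -log10 p of 4.50. A 5mC peak lay within 100 bp of 1017 members, with a median smaller -log10 p of 8.42 and a median log2 ratio of 0.035. Just outside, 858 stable 5hmC regions held 5mC that overlapped their 5hmC peaks by under 100 bp, with medians of 8.38 and -0.0018. The 5 members nearest the threshold of the lists had a smaller -log10 p of 2.67 to 2.68, and 2803 members had a -log10 q under 2 in at least 1 list.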

How the data were processed

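The deposited files are narrow-peak lists, 1 for each 5hmC or 5mC library, on chromosomes named as in hg19. Per the submitters' processing notes the build was hg19 and the tools were bedtools 2.17.0, SAMtools 0.1.18, Bowtie 1.0.0 and CASAVA 1.8.2, with no roles stated. Peak caller and control: not given in the sources used here. Each row of the deposited lists gives the summit, its fold over background, and p-value and q-value as -log10. The score column was not used. The highest q-value was 0.0498. Peaks are named Ctrl in the high-glucose lists and Low in the normal-glucose lists, and groups follow the sample titles.

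Rows on the Y chromosome and mitochondrial DNA, 80, 82, 14 and 15 in the 5hmC high, 5hmC normal, 5mC high and 5mC normal lists, were left out. Rows were merged in Python 3.11.15 with NumPy 2.4.6 and pandas 2.3.3, and bedtools 2.31.1 gave the same 108421 regions. Where a list had several rows in a region, the row with the highest -log10 p stood for it. Fragments t and expected fragments L were solved from fold = (t + 1)/(L + 1) and the Poisson p-value. This succeeded, with a misfit under 1% of the step to the next whole number, for all 5hmC rows and for 100220 and 91870 5mC rows of high and normal glucose bar 11 and 4. Reads follow as the lowest L times genome size over the narrowest row. Code was checked on simulated data. Shares have Wilson intervals, and counting intervals of ratios are exact binomial, with L taken as known (SciPy 1.17.1).

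Named regions are the 10 strongest, the 5 widest, the 5 of largest and 5 of smallest ratio where both -log10 p reach 10, the 5 windows with most members and, chosen after their values were seen, stretches without 5mC and the region farthest from 5mC. Gene lists drawn up earlier were not used, for want of an hg19 annotation here. Members and lists were chosen with earlier results of these data known. Alternatives were a -log10 q of at least 2, a -log10 p of at least 10 in the 5hmC or the 5mC lists alone, joining of rows up to 500 bp apart, autosomes only, 50% overlap, mean fold, subtraction of the overall median and a distance of 5 kb. Fragments in place of fold, the difference from regions with both marks and the use of 50% overlap beyond the count were added after seeing the data.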

Additional observations from a re-analysis of the deposited data

How the results depend on the processing

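The number of stable 5hmC regions without 5mC stayed between 95047 (50% overlap) and 118588 (5mC peaks of -log10 p of at least 10 only) except with 5hmC peaks of -log10 p of at least 10 only, where it was 45336 because fewer peaks entered. Their share of stable 5hmC was 78.0% at a -log10 q of at least 2, 75.1% with strong 5hmC only, 85.0% with strong 5mC only, 74.7% with rows up to 500 bp apart joined, 77.5% on autosomes and 79.7% at 50% overlap. The median log2 ratio of fold was 0.024 with strong 5hmC only, 0.033 with strong 5mC only, 0.016 with the overall median subtracted, 0.010 by fragments and 0.041 at 50% overlap. No alternative run turned its sign, but all came from the same pair of libraries. All except the run by fragments used the same fold, in which the added 1 does not scale with the library background. The part of this in the sign was not tested. The share within 1 kb of 5mC was 10.1% with strong 5hmC only, 6.99% with strong 5mC only, 5.62% with rows joined, 10.8% at 50% overlap, and 36.1% when 5 kb was taken. The difference in median log2 ratio from regions with both marks was 0.047 with strong 5hmC only, 0.081 with rows joined, 0.078 by fragments and 0.084 at 50% overlap. Strong means a -log10 p of at least 10. The 5mC libraries had 6.14 M and 5.11 M inferred reads in high and normal glucose, and the part of depth in the absence of 5mC peaks was not tested. No paired analysis was possible because each group holds 1 library.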
